A study of Mus musculus with 51 samples.

Results

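The 10 genes described here act in selective autophagy: the cargo receptors Sqstm1 and Nbr1, the 5 ATG8 genes Map1lc3a, Map1lc3b, Gabarap, Gabarapl1 and Gabarapl2, the kinase gene Ulk1, the phosphoinositide-binding gene Wipi1 and the transcription factor gene Tfeb. They were taken by name from the gene column of a mouse bulk RNA-seq table, where all 10 were found among 40077 genes, and every member passed the filter on low counts in every comparison. TAK-243, an inhibitor of UBA1, the enzyme that activates ubiquitin at the start of its transfer to proteins, raised 7 of them and lowered Tfeb in cultured cells, where 66.3% of all genes tested changed past the threshold in either direction. Sqstm1 rose most of the 10, from 135 and 137 to 784 and 763 CPM, counts scaled to the size of each library.

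Macroautophagy encloses cytoplasmic cargo in a double membrane that then fuses with lysosomes. The proteins of Sqstm1 (p62) and Nbr1 bind ubiquitin on cargo at one end and ATG8 proteins on the membrane at the other, so this pathway takes up ubiquitin-marked material alongside the proteasome. ATG8 proteins form the LC3 branch (Map1lc3a, Map1lc3b) and the GABARAP branch (Gabarap, Gabarapl1, Gabarapl2), and are joined to a lipid of the growing membrane. ULK1 starts the process, WIPI1 reads a phosphoinositide on the early membrane, and TFEB switches on lysosome and autophagy genes when it enters the nucleus. The assay measured RNA, and neither the proteins nor autophagic flux.

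The table holds 51 libraries, 35 from tumors and 16 from cultured cells. Myc-CaP is a mouse prostate cancer line and B16-BL6 a mouse melanoma line, and tumors were subcutaneous, in male FVB or in C57BL/6 mice of 6 to 8 weeks, with both flanks injected, so that tumors may share a mouse. The tumor groups were B16-BL6 sgNC (control guide, n = 3) and sgUba1 (guide against Uba1, n = 4), Myc-CaP sgNC (n = 3) and sgUba1 (n = 7), Myc-CaP EV (empty vector, n = 3) and Uba1 OE (overexpression from a lentiviral vector, n = 4), and Myc-CaP vehicle (n = 6) and TAK-243 (25 mg/kg, intravenous, n = 5). The cell groups had 2 libraries each and came from a pair of experiments: untreated Myc-CaP cells or cells with 50 nM TAK-243, each without and with IFN-γ, and Myc-CaP cells of the control-guide (NC) or sgUba1 line, each without and with IFN-γ. The methods give 1 ng/mL of IFN-γ and 18 hours for the cell treatments, and describe the guide lines as grown from single cells, so a guide effect and the character of a clone cannot be told apart. The methods speak of distinct samples without saying that replicates of cells were separate cultures, and p-values then measure only the spread between these libraries.

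Uba1 itself was 295 and 283 CPM in sgUba1 cells against 533 and 526 in NC cells. It was lower in every B16-BL6 sgUba1 tumor (208 to 247 CPM) than in every control (410 to 455). In Myc-CaP, the tumors labelled sgUba1 had 197, 202, 211, 373, 361, 368 and 383 CPM against 320, 325 and 337 in the controls. Uba1 RNA in tumors 4 to 7 thus lay above every control. The paper reports partial depletion of the protein in the cell lines, by immunoblot and with independent guides. The labels do not say which guide a tumor carried, and RNA does not tell how much UBA1 protein these tumors held. Melanocyte genes stood high in B16-BL6 tumors (Dct 3623 to 4309 TPM, a unit scaled for transcript length and depth) although GEO's labels call those cells epithelial too. In the Myc-CaP cells the epithelial marker Epcam was at most 0.13 TPM and the keratin gene Krt8 ran from 1.57 to 12.2 TPM. Totals were 8651963 to 35693092 expected counts in tumors and 12860844 to 38032284 in cells.

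The promoters of the 4 members that TAK-243 raised by over 2-fold in cells with and without IFN-γ are shown because these genes rose together. Each run covers 250 bases before to 50 after the start site, from RefSeq on GRCm38.p6, 5′ to 3′ on the gene's strand, and capitals mark motif matches on either strand.
Sqstm1, chr11:50210771-50211070, minus strand: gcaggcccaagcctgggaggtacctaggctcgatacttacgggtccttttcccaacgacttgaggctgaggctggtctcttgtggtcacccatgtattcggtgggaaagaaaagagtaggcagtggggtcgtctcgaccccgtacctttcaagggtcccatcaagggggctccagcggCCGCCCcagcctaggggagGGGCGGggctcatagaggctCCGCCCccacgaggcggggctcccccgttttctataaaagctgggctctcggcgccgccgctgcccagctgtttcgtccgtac
Map1lc3b, chr8:121590188-121590487, plus strand: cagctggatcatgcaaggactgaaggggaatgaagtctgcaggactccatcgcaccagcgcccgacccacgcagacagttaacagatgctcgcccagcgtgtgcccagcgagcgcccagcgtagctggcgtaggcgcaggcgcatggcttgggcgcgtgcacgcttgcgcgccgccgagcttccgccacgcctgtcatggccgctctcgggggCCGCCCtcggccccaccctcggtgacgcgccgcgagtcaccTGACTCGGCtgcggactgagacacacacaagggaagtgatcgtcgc
Gabarapl2, chr8:111940453-111940752, plus strand: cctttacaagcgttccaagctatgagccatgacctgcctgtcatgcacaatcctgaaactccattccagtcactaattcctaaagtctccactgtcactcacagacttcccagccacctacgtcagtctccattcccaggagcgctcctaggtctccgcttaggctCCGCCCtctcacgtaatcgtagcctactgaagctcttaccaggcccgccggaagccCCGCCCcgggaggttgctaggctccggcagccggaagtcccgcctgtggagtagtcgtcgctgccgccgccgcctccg
Ulk1, chr5:110810032-110810331, minus strand: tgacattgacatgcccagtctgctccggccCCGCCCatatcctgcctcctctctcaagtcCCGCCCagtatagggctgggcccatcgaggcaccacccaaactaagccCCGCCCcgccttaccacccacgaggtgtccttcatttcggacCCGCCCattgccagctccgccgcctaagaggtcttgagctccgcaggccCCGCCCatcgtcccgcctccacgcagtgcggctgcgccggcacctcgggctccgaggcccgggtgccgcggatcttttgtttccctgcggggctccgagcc

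The letters searched were the core of the antioxidant response element (TGACNNNGC), the E-box CACGTG that TFEB binds within a longer site, the cAMP response element (TGACGTCA), the core of the C/EBP-ATF element (TTGCATCA), the AP-1 site (TGANTCA), the heat shock unit (GAANNTTC), the GC box (GGGCGG) and the CCAAT box (CCAAT). All 4 promoters hold the GC box, from 1 match in Map1lc3b to 5 in Ulk1, and so do 35.7% of the 32851 RefSeq promoters. The GC box is not particular to these 4 members. Wipi1, which TAK-243 did not change past the threshold, holds 9 matches, and every start site of Tfeb, which fell, holds it. A start site of Nbr1 holds it too, Gabarapl1 has 2 matches and Gabarap 0. Map1lc3b also holds an antioxidant element core at bases 5 to 13 after the start, a match found in 12.4% of promoters. None of the 4 holds the E-box (7.15% of promoters), the cAMP element (1.79%), the C/EBP-ATF core (0.895%), the AP-1 site (7.81%), the heat shock unit (7.86%) or the CCAAT box (37.4%) in this window. Matches are letters in a short window and are no measure of binding. RefSeq gave 12 start sites for 9 of the 10 members, and Map1lc3a was not matched.

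On GRCm38 (GENCODE M21), Sqstm1 lies on chromosome 11 from 50199366 to 50210827 and overlaps Mrnip on the other strand. Map1lc3b (chromosome 8, 121590361 to 121598760) overlaps Gm20388 on its own strand and Zcchc14 on the other, and Gabarapl1 (chromosome 6, 129533160 to 129542346) overlaps Gm44243 and 1700101I11Rik. Counting by strand is not stated, so some reads of these 3 genes may belong to the overlapping genes. Gabarapl2 (chromosome 8, 111940703 to 111953612), Ulk1 (chromosome 5, 110784488 to 110810097), Map1lc3a (chromosome 2, 155276297 to 155278073), Gabarap (chromosome 11, 69991143 to 69994951), Nbr1 (chromosome 11, 101552149 to 101581951), Wipi1 (chromosome 11, 109573331 to 109611967) and Tfeb (chromosome 17, 47737030 to 47792419) overlap no annotated gene.

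The levels of the members were first set side by side in TPM, which allow genes to be compared but were not normalised between experiments. In untreated cells the mean level was highest for Sqstm1 (107 TPM) and lowest for Tfeb (5.69 TPM), with Map1lc3b at 72.8, Gabarapl2 at 56.9, Gabarap at 56.2, Nbr1 at 38.4, Gabarapl1 at 31.6, Map1lc3a at 17.9, Wipi1 at 15.9 and Ulk1 at 8.87 TPM. Over the 16 groups, Sqstm1 was highest in B16-BL6 sgNC tumors (756 ± 22.0 TPM, SD, n = 3). TAK-243 cells with IFN-γ (639 ± 6.74, n = 2) and B16-BL6 sgUba1 tumors (636 ± 39.9, n = 4) followed, with overlapping ranges, and then TAK-243 cells without IFN-γ (595 ± 19.4, n = 2), which overlapped B16-BL6 sgUba1 tumors too. The 6 Myc-CaP tumor groups had means between 230 and 303 TPM, and neighbours among them overlapped. The 6 cell groups without TAK-243 lay lowest, at 76.6 to 113 TPM. Tfeb had another order: both B16-BL6 groups stood highest (41.8 ± 3.12 and 38.6 ± 6.71 TPM, overlapping) and TAK-243 cells lowest (2.29 ± 0.58 TPM).

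The 5 ATG8 genes together gave 238 and 233 TPM in untreated cells and 498 and 503 TPM with TAK-243. The mixture shifted towards Map1lc3b, which made up 31.0% and 30.9% of the sum in untreated cells and 43.1% and 40.0% with TAK-243, while Gabarap went from 24.5% and 23.3% to 14.3% and 13.7%. In NC and sgUba1 cells the sum stayed within 203 to 215.5 TPM in all 8 libraries. Myc-CaP tumors had sums of 306 to 620 TPM and B16-BL6 tumors 341 to 424 TPM. B16-BL6 tumors differed in mixture, with Gabarap at 40.9% to 46.3% and the LC3 branch at 20.6% to 23.0% of the sum, whereas the LC3 branch made up 39.1% to 51.8% in Myc-CaP tumors. These shares are descriptions, and lines, hosts and experiments differ together between the models.

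**Figure D1:**
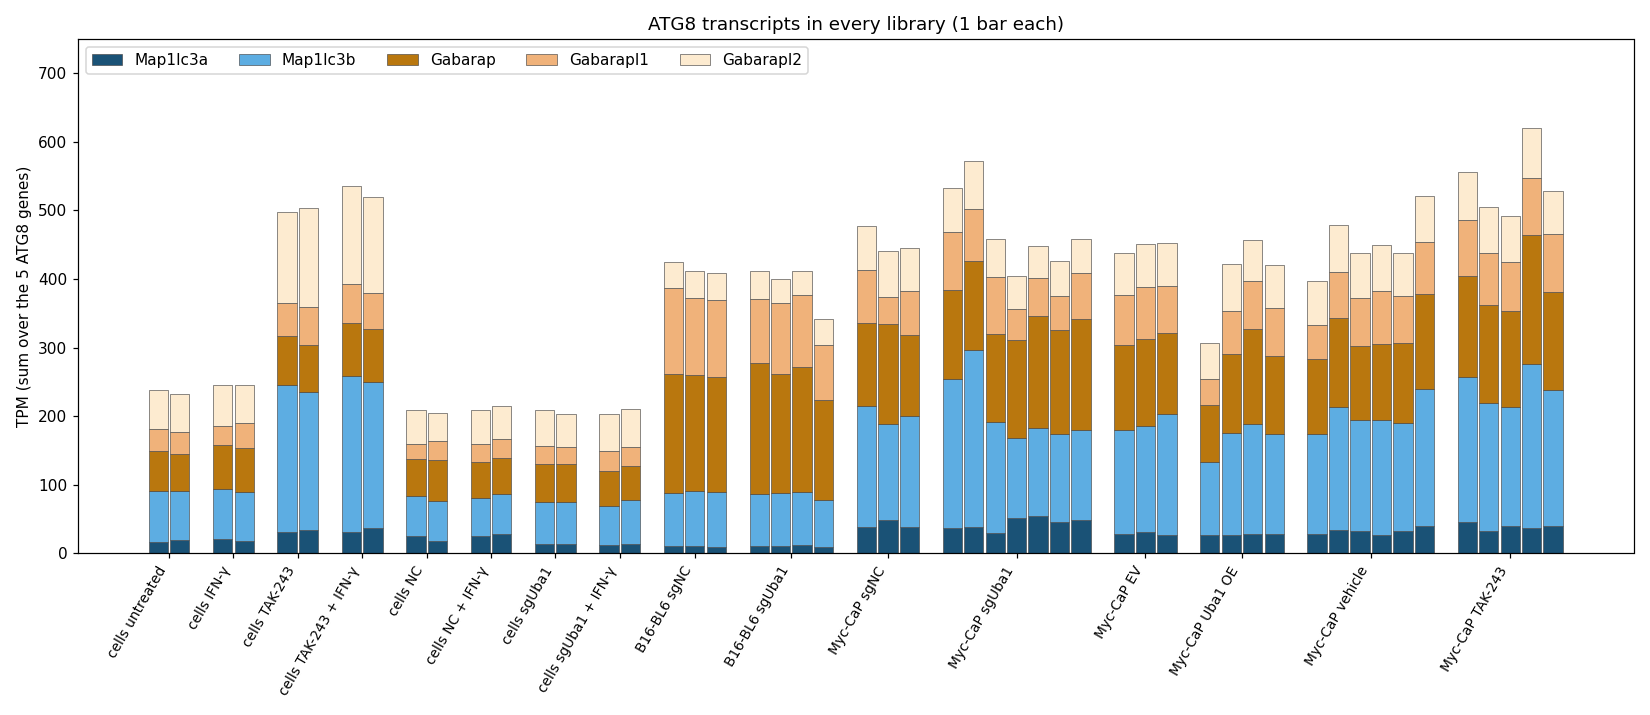
Summed TPM of the 5 ATG8 genes in every library, one bar per library, with colours for the genes and groups along the horizontal axis. The 4 TAK-243 cell libraries reach 498 to 535 TPM against 203 to 245.9 TPM in the other 12 cell libraries, and the LC3 branch takes its smallest share of the bar in B16-BL6 tumors, 20.6% to 23.0%.

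The question of what inhibiting the enzyme does to these genes in the cells themselves was asked with untreated against TAK-243 cells. Tested with edgeR (quasi-likelihood, p-values adjusted by Benjamini-Hochberg over all 14551 genes tested), 8 of the 10 members passed an adjusted p of 0.05, 7 higher and 1 lower. The background is large here: 32.3% of all genes tested passed as higher and 34% as lower. The median log2 fold change was 0.85 over the members and 0.03 over all genes tested.

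Of the receptors, Sqstm1 rose from 135 and 137 CPM to 784 and 763 CPM, and the groups lay far apart. The rise was 5.69-fold, or 2.51 on the log2 scale (standard error 0.032), with an adjusted p of 1.92e-31 by edgeR, and ranked 415 from the top of the 14551 genes. Nbr1, the other receptor that binds ubiquitin, was 104 and 106 CPM untreated and 99.3 and 101 CPM with TAK-243 (log2 fold change −0.07, standard error 0.044, adjusted p = 0.137, edgeR). That value hung on single libraries: leaving out any 1 of the 4 TAK-243 libraries, with or without IFN-γ, gave Nbr1 an adjusted p of 0.0113 to 0.0471 (edgeR) and a log2 fold change of −0.13 to −0.12.

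All 5 ATG8 genes rose, by unequal amounts. Map1lc3b, whose lipid-bound protein is the usual marker of autophagosomes, went from 66.3 and 67.1 CPM to 175 and 170 CPM, a log2 fold change of 1.37 (standard error 0.043). Gabarapl2, also known as GATE-16, went from 58.0 and 56.6 to 134 and 148 CPM (log2 fold change 1.30, standard error 0.051). These were the largest rises in each branch. Map1lc3a, the sparse member of the LC3 branch, went from 10.3 and 11.6 to 19.4 and 21.0 CPM (0.88, standard error 0.114), and Gabarapl1 from 28.3 and 26.4 to 48.5 and 47.7 CPM (0.81, standard error 0.075). Gabarap had the smallest rise, from 41.9 and 39.0 to 55.9 and 53.1 CPM (0.43, standard error 0.067, adjusted p = 1.42e-06, edgeR).

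Among the regulators, Ulk1 rose from 31.0 and 28.8 CPM to 75.8 and 68.7 CPM, 1.28 higher on the log2 scale (standard error 0.069, adjusted p = 3.68e-16, edgeR). Tfeb fell from 3.70 and 3.68 CPM to 1.72 and 1.85 CPM, by 1.05 on the log2 scale (standard error 0.263, adjusted p = 8.18e-04, edgeR). Tfeb rested on 58 and 59 counts untreated and 28 and 23 counts treated, so its size is the least precise of the 10. Wipi1 stood at 24.2 and 24.1 CPM untreated and 24.2 and 25.4 CPM with TAK-243, with overlapping groups (log2 fold change 0.04, adjusted p = 0.743, edgeR). Keratinocyte markers summed to 944 and 949 TPM in untreated and 222 and 223 TPM in TAK-243 cells, but the genes moved in opposite directions. Krt15 was 929 to 934 TPM in untreated and 137 to 138 TPM in TAK-243 cells. Sbsn was 15.3 to 15.5 and 77.31 to 79.25 TPM, and Krt14 0.06 to 0.49 and 6.295 to 7.02 TPM. The other genes of the list were at most 0.06 TPM, and the part of the list in the changes of the members was not tested.

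**Figure D2:**
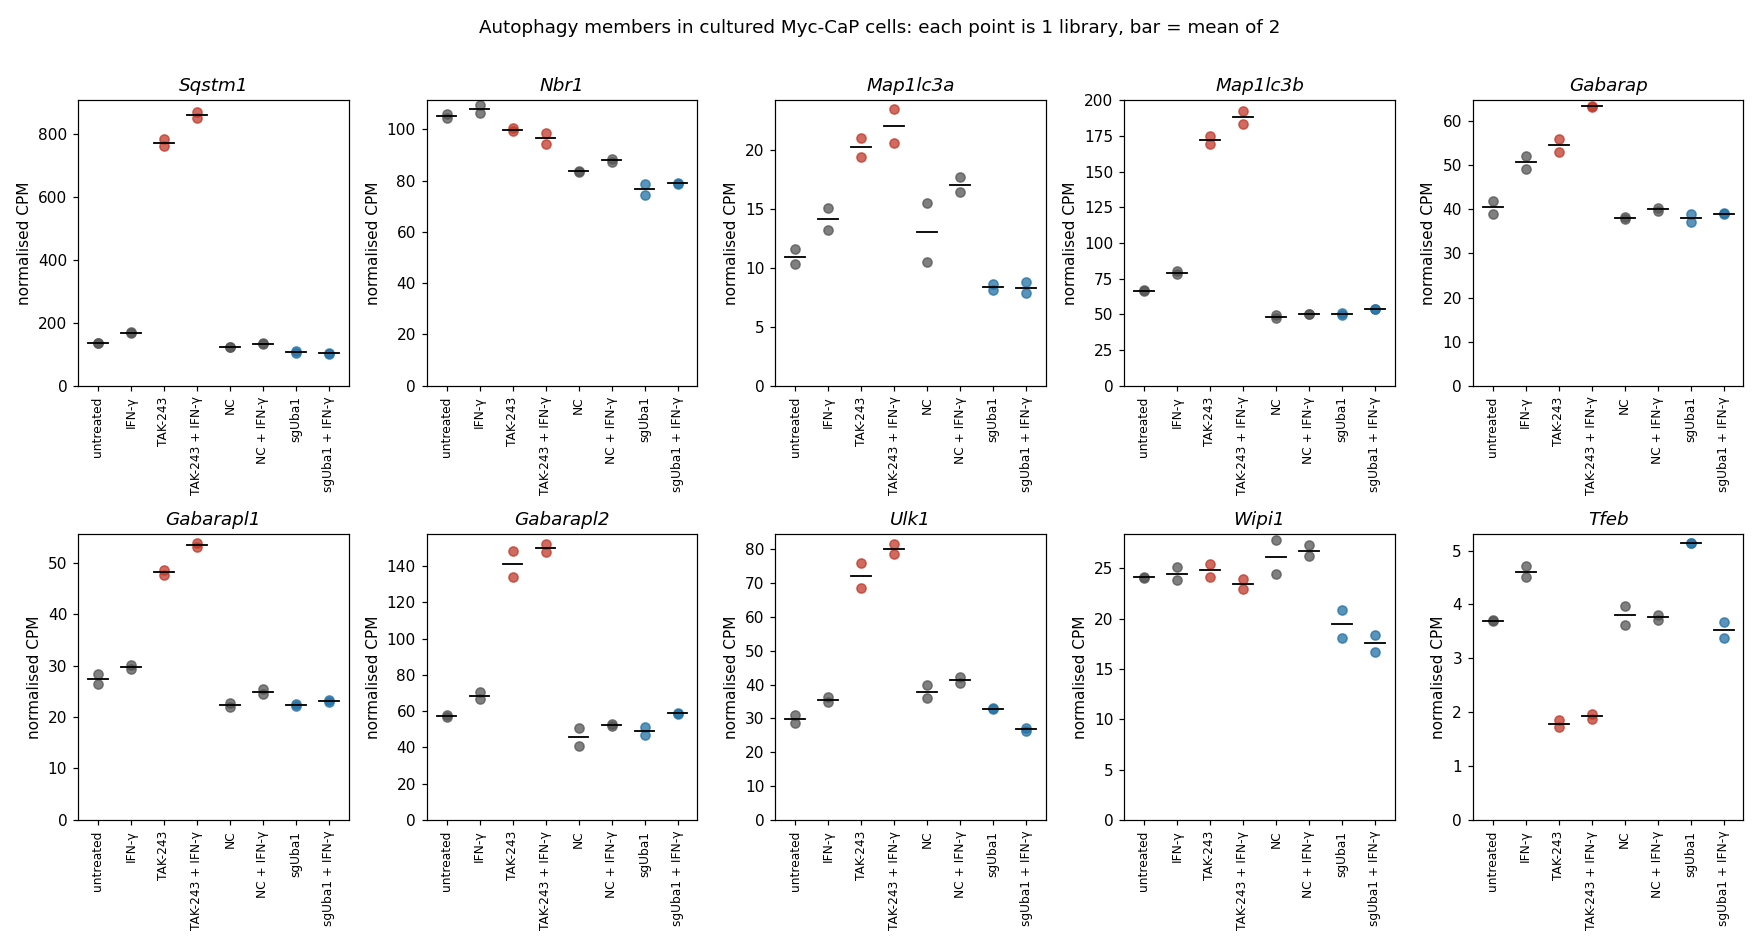
Normalised CPM of the 10 members in the 16 libraries of cultured Myc-CaP cells, one panel per gene with the groups along the horizontal axis, points for libraries and bars for means of 2. Red marks TAK-243, blue sgUba1 and grey their controls. Sqstm1, the 5 ATG8 genes and Ulk1 lie higher in every red point than in every other point of their panels, while Tfeb lies lower. CPM were normalised within each of the experiments.

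With IFN-γ present in both arms, the same 7 members were higher and Tfeb lower, and Nbr1 joined as lower: 9 of 10 passed, where 68.2% of all genes tested passed and 32% passed as higher. Sqstm1 went from 170 and 169 to 870 and 853 CPM (log2 fold change 2.35, standard error 0.031). The other rises were 1.24 for Map1lc3b, 1.18 for Ulk1, 1.13 for Gabarapl2, 0.85 for Gabarapl1, 0.64 for Map1lc3a and 0.32 for Gabarap on the log2 scale. Nbr1 was 106 and 110 CPM with IFN-γ and 98.5 and 94.5 CPM with both agents (log2 fold change −0.16, adjusted p = 0.00161, edgeR), 1.12-fold lower, and did not pass by DESeq2 (adjusted p = 0.0531). Tfeb fell by 1.26 on the log2 scale, from 4.51 and 4.72 to 1.97 and 1.88 CPM. In TPM, the libraries with both agents read 5.83 and 1.88, apart from each other although they held 28 and 30 counts, and on that scale Tfeb did not pass (adjusted p = 0.348, limma).

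The TAK-243 effects with and without IFN-γ differed past the threshold for 1 member of the 10, Sqstm1, where 2.38% of all genes passed. Its rise was 0.16 smaller on the log2 scale with IFN-γ (standard error 0.044, adjusted p = 0.0427, edgeR), and leaving out any 1 of the 8 libraries ended the call. For the other members the difference lay between −0.24 and 0.03.

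In cells of the sgUba1 line against NC cells, 5 of the 10 members passed, 4 lower and 1 higher, where 29.7% of all genes tested passed and 13.6% passed as lower. Map1lc3a had the largest of these changes, from 15.5 and 10.5 CPM in NC to 8.602 and 8.10 CPM in sgUba1 cells, a fall of 0.63 on the log2 scale (standard error 0.153, adjusted p = 0.00902, edgeR). Both NC libraries lay above both sgUba1 libraries, but they also lay far from each other. Without NC replicate 1, the higher of them, the fall was 0.33, and without NC replicate 2 it was 0.89. Wipi1 fell from 24.4 and 27.8 to 20.8 and 18.1 CPM (log2 fold change −0.43, standard error 0.092, adjusted p = 0.00471, edgeR). Sqstm1 fell from 122 and 124 to 110 and 105 CPM (log2 fold change −0.19, standard error 0.047, adjusted p = 0.00907, edgeR), and Ulk1 from 35.9 and 39.9 to 32.97 and 32.7 CPM (−0.21, adjusted p = 0.0328). Tfeb rose from 3.98 and 3.63 to 5.13 and 5.13 CPM (log2 fold change 0.43, adjusted p = 0.0251, edgeR). Map1lc3b, Gabarap, Gabarapl1 and Gabarapl2 had log2 fold changes of 0.06, 0.00, −0.00 and 0.09, and Nbr1 one of −0.12 (adjusted p = 0.0543, edgeR). The calls of Ulk1 and Tfeb did not pass by DESeq2 (adjusted p of 0.0637 and 0.142) or with only the groups compared (0.0936 and 0.0654, edgeR), and they were lost in 9 and 7 of 17 alternative settings. The 5 calls leaned on single libraries. Without sgUba1 replicate 2, 0 of the 10 passed, and without NC replicate 2, 3 passed. Without NC replicate 1, 7 passed, with Nbr1 lower and Gabarapl2 higher.

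With IFN-γ, 5 members were lower in sgUba1 cells and 0 higher, where 39.4% of all genes tested passed and 22.4% passed as lower. Map1lc3a was 16.4 and 17.7 CPM in NC and 7.84 and 8.76 CPM in sgUba1 cells (log2 fold change −1.04, standard error 0.147, adjusted p = 2.01e-04, edgeR). Ulk1 fell from 42.3 and 40.5 to 27.3 and 26.2 CPM (log2 fold change −0.63, standard error 0.065, adjusted p = 2.36e-05, edgeR). Wipi1 fell by 0.61, Sqstm1 by 0.37 and Nbr1 by 0.16 on the log2 scale. Sqstm1 was 135 and 132 CPM in NC and 101 and 105 CPM in sgUba1 cells. Nbr1 lost its call without any 1 of 5 of the 8 libraries. Uba1 was 269 and 275 CPM in these sgUba1 libraries.

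The sgUba1 effect differed between the conditions past the threshold for Ulk1 alone among the 10 (difference in log2 fold change −0.42, standard error 0.092, adjusted p = 0.0336, edgeR), where 4.64% of all genes passed. That call was lost without any 1 of 6 of the 8 libraries, and kept without either NC library. Without NC replicate 1, Map1lc3a passed as well. For the other members the difference lay between −0.53, for Tfeb, and 0.07.

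The drug and the guide were then compared directly, each against its own control without IFN-γ. The log2 changes with TAK-243 minus those in sgUba1 cells passed for 9 of the 10 members, 8 positive and 1 negative, where 55.3% of all genes tested passed. The difference was 2.68 for Sqstm1 (standard error 0.058, adjusted p = 1.97e-17, edgeR), 1.49 for Map1lc3a, 1.46 for Ulk1, 1.29 for Map1lc3b, 1.18 for Gabarapl2, 0.80 for Gabarapl1, 0.44 for Wipi1 and 0.41 for Gabarap. For Tfeb it was −1.51, and for Nbr1 it was 0.03 (adjusted p = 0.719, edgeR). Sqstm1 and Map1lc3a thus rose with the drug and fell in the sgUba1 line. Ulk1 had the same signs and Tfeb the opposite ones, with sgUba1 calls that were lost by DESeq2. Uba1 RNA moved apart as well, higher with TAK-243 (452 and 445 to 595 and 565 CPM) and lower in the sgUba1 line. The cells came from separate experiments, and an exposure of 18 hours was set beside a stable line.

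**Figure D3:**
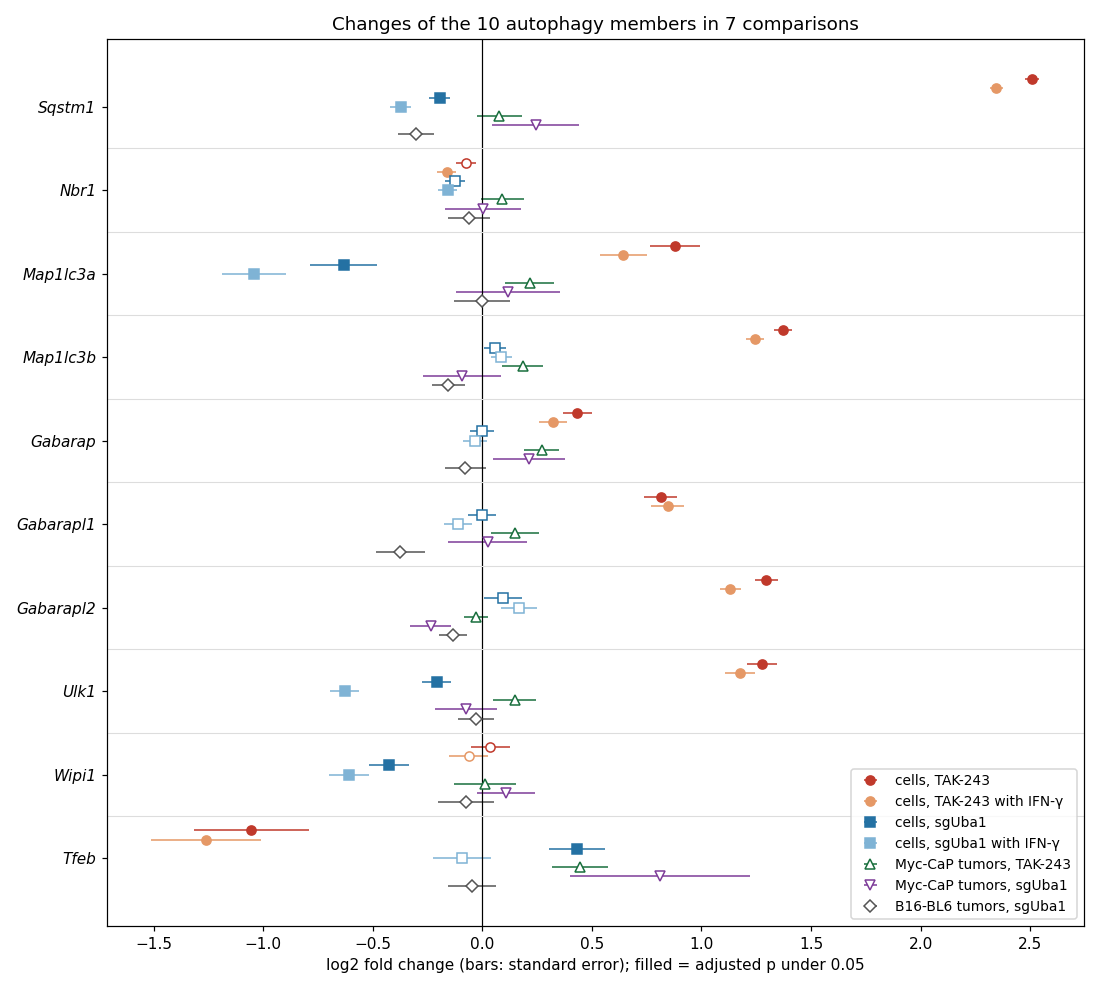
Log2 fold changes of the 10 members (horizontal axis, bars for 1 standard error) in 7 comparisons, with genes on the vertical axis. Filled symbols passed an adjusted p of 0.05. The filled red circles for TAK-243 in cells lie to the right for 7 genes, the filled blue squares for sgUba1 in cells lie to the left except for Tfeb, and the tumor symbols are all open.

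IFN-γ alone was compared in the controls of each experiment. In untreated cells 6 members passed, all of them higher, where 29% of all genes tested passed and 19.6% passed as higher. Sqstm1 went from 135 and 137 to 170 and 169 CPM (log2 fold change 0.32, standard error 0.034, adjusted p = 3.19e-08, edgeR). Map1lc3a (0.36), Gabarap (0.33), Gabarapl2 (0.25), Map1lc3b (0.25) and Ulk1 (0.25) were the others, at most 1.29-fold. Map1lc3a lost its call without untreated replicate 1 or IFN-γ replicate 1, and Ulk1 without untreated replicate 2 or IFN-γ replicate 1. On the TPM scale, where the median of all genes moved by −0.18, 2 members passed, Wipi1 as lower and 1 as higher, and Map1lc3b changed sign (−0.02). In NC cells 0 of the 10 passed by edgeR, although 4 had an unadjusted p under 0.05, and 3.88% of all genes passed. Sqstm1 was 122 and 124 CPM without and 135 and 132 CPM with IFN-γ there (log2 fold change 0.11, adjusted p = 0.174, edgeR). The limma-voom and DESeq2 fits also gave 0, and without NC replicate 1, Map1lc3a and Gabarapl2 passed.

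In Myc-CaP tumors treated with TAK-243, 0 of the 10 members passed by edgeR, where 0.145% of the 17299 genes tested passed, and 2 members had an unadjusted p under 0.05. Gabarap lay higher in all 5 treated tumors (89.5 to 111 CPM, median 93.3) than in all 6 vehicle tumors (74.1 to 88.2 CPM, median 81.7), 0.27 higher on the log2 scale (standard error 0.081, adjusted p = 0.170, edgeR). Tfeb ran from 5.65 to 8.17 CPM (median 7.28) against 4.31 to 6.14 CPM (median 5.26), with overlap (log2 fold change 0.45, standard error 0.129, adjusted p = 0.163, edgeR), and it passed by DESeq2 (adjusted p = 0.0462). Sqstm1 ran from 293 to 434 CPM (median 319) against 285.5 to 340.5 CPM (median 328). Its log2 fold change of 0.08 had an interval of 2 standard errors from −0.13 to 0.28. Macrophage and myeloid markers summed to 391.6 to 761 TPM in treated and 274 to 425 TPM in vehicle tumors, with 3 of 14 passing as higher. Keratinocyte markers summed to 191 to 995 TPM and 192 to 945 TPM, with 8 and 2 of the 10 genes at a mean of at least 1 TPM. Krt14 ran from 0 to 36.0 TPM and Flg from 0 to 38.5 TPM in treated tumors. They were at most 0.23 and 0.09 TPM in vehicle tumors. Skeletal muscle markers summed to 78.4 to 149.9 TPM in treated and 80.6 to 593 TPM in vehicle tumors. The part of these lists in the values was not tested. A whole tumor holds several cell types, and fewer cells of a type cannot be told apart from less RNA per cell.

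The drug's effect in cells minus that in tumors passed for 7 of the 10 members, where 31.2% of all genes tested passed. The difference was 2.40 for Sqstm1 (standard error 0.172, adjusted p = 3.76e-08, edgeR), 1.30 for Gabarapl2, 1.16 for Map1lc3b, 1.10 for Ulk1, 0.64 for Map1lc3a and 0.64 for Gabarapl1. Tfeb had the opposite sign, at −1.53 (standard error 0.253, adjusted p = 1.62e-04, edgeR). Its log2 fold change was −1.05 in cells and 0.45 in tumors, the latter not past the threshold by edgeR. Gabarap, Nbr1 and Wipi1 had differences of 0.13, −0.19 and −0.00 that did not pass. Dose, time and route differed between the settings: 50 nM for 18 hours in culture, and repeated injections of 25 mg/kg in mice.

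In B16-BL6 tumors, 0 of the 10 members passed by edgeR between sgUba1 and sgNC, where 0.724% of the 17539 genes tested passed, and 2 members had an unadjusted p under 0.05. Those were Sqstm1 and Gabarapl1. Sqstm1 ran from 723 to 898 CPM in the 4 sgUba1 tumors and from 970 to 1069 CPM in the 3 controls, without overlap (log2 fold change −0.30, standard error 0.084, adjusted p = 0.149, edgeR). DESeq2 called it (adjusted p = 0.0236). Gabarapl1 ran from 65.9 to 92.3 CPM against 97.5 to 113 CPM (log2 fold change −0.37, adjusted p = 0.176, edgeR). The log2 fold changes of all 10 members lay between −0.37 and −0.00. Macrophage and myeloid markers summed to 260 to 335 TPM in sgUba1 tumors and 150 to 262 TPM in controls, T and NK cell markers to 10.1 to 13.1 TPM and 7.10 to 9.35 TPM, and skeletal muscle markers to 23.8 to 377 TPM and 13.4 to 98.4 TPM. Their part in these values was not tested.

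In Myc-CaP tumors, 0 of the 10 members passed by edgeR between sgUba1 and sgNC, where 3.04% of the 16202 genes tested passed, and 1 member (Gabarapl2) had an unadjusted p under 0.05. By DESeq2, too, 0 passed. The 7 tumors labelled sgUba1 did not form a single cloud. In the order of their numbers, Sqstm1 was 290, 296, 279, 443, 508, 421 and 437 CPM against 306 to 343 CPM in the controls. Tumors 4 to 7, which had the higher Uba1, lay above every control, and tumors 1 to 3, with the lower Uba1, below every control. Tfeb was 5.02, 6.36 and 7.04, then 16.9, 13.7, 15.7 and 14.6 CPM, with tumors 4 to 7 above every control (4.72 to 8.56) and tumors 1 to 3 among them. Nbr1 parted like Sqstm1, against 166 to 195.6 CPM in controls: it was 137, 143 and 142, then 212, 221, 198 and 198 CPM. Map1lc3a (19.6, 21.6 and 16.4, then 33.8, 35.7, 29.1 and 30.8 CPM) and Gabarap (73.3, 79.0 and 73.8, then 99.8, 118, 103 and 110 CPM) were also higher in tumors 4 to 7. Map1lc3b did not follow: it was 169, 191, 123, 111, 128, 116 and 120 CPM.

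Because Uba1 RNA lay above the controls in tumors 4 to 7, the fit was repeated without them, an alternative chosen after seeing the data. The log2 fold change of Sqstm1 was 0.24 with all 7 tumors and −0.17 with tumors 1 to 3, that of Tfeb 0.81 and −0.07, that of Nbr1 0.00 and −0.35, that of Map1lc3a 0.12 and −0.36, and that of Gabarap 0.21 and −0.11. None of the 10 passed in either fit (lowest adjusted p of 0.166 and 0.154, edgeR), and without tumors 4 to 7 only 0.00638% of all genes tested passed, 1 of 15679. Macrophage and myeloid markers summed to 622 to 1083 TPM in the 7 sgUba1 tumors and 362 to 665 TPM in the controls. With all 7 tumors 3 of 13 passed as higher, Adgre1, C1qa and Cd68, where 3.04% of all genes tested passed. Without tumors 4 to 7 these 3 did not pass (adjusted p of 0.134 to 0.149, edgeR), although their log2 fold changes stayed similar. They were 1.15 and 0.97 for Adgre1, 0.82 and 0.87 for C1qa, and 0.83 and 0.75 for Cd68, with and without those tumors. T and NK cell markers summed to 14.0 to 28.1 TPM against 9.86 to 13.4 TPM, and keratinocyte markers to 10.2 to 97.4 TPM against 197 to 1402 TPM, mostly Krt15, which cultured Myc-CaP cells hold too. Neither of these sums overlapped between the groups, and the part of the 3 lists in these values was not tested.

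Overexpression of Uba1 raised its own RNA from 278 to 310 CPM in EV tumors to 631 to 747 CPM in OE tumors. None of the 10 members passed by edgeR or DESeq2, 0 had an unadjusted p under 0.05, and 0.0269% of the 14853 genes tested passed. Sqstm1 ran from 257 to 360 CPM in OE tumors and from 276 to 284 CPM in EV tumors (log2 fold change 0.12, adjusted p = 0.606, edgeR). The interval of 2 standard errors for Sqstm1 was −0.11 to 0.35, and the 10 log2 fold changes lay between −0.25 and 0.12. T and NK cell markers summed to 5.95 to 9.55 TPM in OE tumors and 16.3 to 23.3 TPM in EV tumors, and keratinocyte markers, mostly Krt15, to 248 to 1078 TPM and 50.3 to 163 TPM, both without overlap. Skeletal muscle markers summed to 90.2 to 688 TPM and 95.0 to 124 TPM, with overlap. The part of these lists was not tested.

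**Figure D4:**
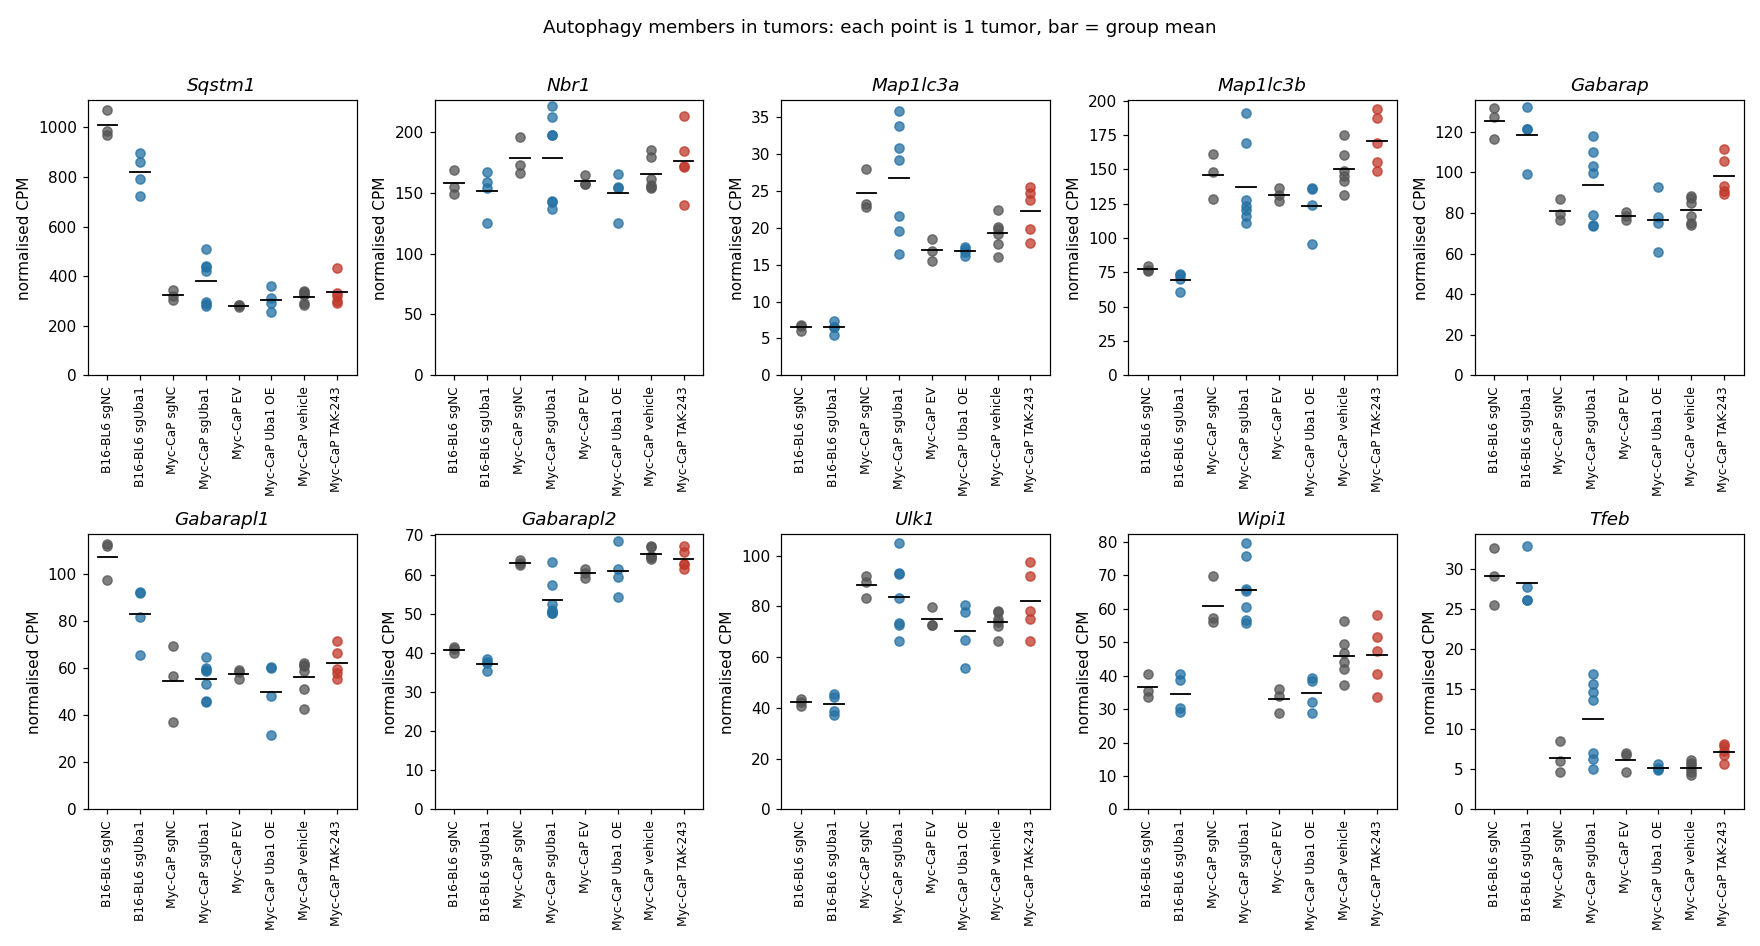
Normalised CPM of the 10 members in the 35 tumors, one panel per gene with the tumor groups along the horizontal axis, points for tumors and bars for group means. Grey marks controls, blue the Uba1 guide or overexpression and red TAK-243. CPM were normalised within each experiment. The 4 Myc-CaP sgUba1 tumors with Sqstm1 of 421 to 508 CPM are seen apart from the other 3, and Sqstm1 in B16-BL6 lies above all Myc-CaP tumors.

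The wider autophagy machinery was followed through 65 further genes in 5 lists. In TAK-243 cells 33 of the 63 tested rose and 17 fell (median log2 fold change 0.23, against 0.03 over all genes tested), where 32.3% of all genes passed as higher and 34% as lower. The counts by list stand against the same shares. Of the 12 initiation and nucleation genes 8 rose and 2 fell. Atg14, which directs the lipid kinase complex to autophagy, rose from a mean of 9.28 to 47.1 CPM (log2 fold change 2.34), and Atg101, a partner in the ULK1 complex, rose by 1.64. Ulk2, the paralog of Ulk1, fell by 1.57 on the log2 scale. Of the 15 other receptors tested 8 rose and 4 fell, with rises of 1.77 for the mitophagy receptor gene Bnip3l, 1.58 for Calcoco1 and 1.56 for Tax1bp1, and a fall of 1.23 for the ER-phagy receptor gene Ccpg1. Of the 20 conjugation and membrane genes 11 rose and 5 fell, among the latter Atg3, the E2-like enzyme that joins ATG8 to lipid, by 0.84. Of the 14 fusion genes 5 rose and 5 fell, and Vps39, of the tethering complex on lysosomes, fell by 1.33. With IFN-γ, 27 rose and 17 fell, where 32% of all genes passed as higher and 36.2% as lower, and Atg12, the ubiquitin-like partner of Atg5, was among the leading rises (1.46).

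Lysosome genes of the TFEB network moved both ways with TAK-243: 19 of 38 rose and 14 fell, with a median log2 fold change of 0.10, where 32.3% of all genes passed as higher and 34% as lower. Naglu, a lysosomal enzyme gene, had the largest fall of the list, from a mean of 18.9 to 2.29 CPM (log2 fold change −3.04), followed by Sgsh (−1.65) and Gusb (−1.34). Cln3 (1.36), Fnip1 (1.07) and the proton pump subunit gene Atp6v1c1 (0.97) led the rises. Tfe3, Mitf and Tfec make up the remaining list, in which 1 of 2 tested genes rose and 1 fell. The NRF2 targets, among which Sqstm1 is often counted, had 7 rises and 10 falls of 18 tested, with a median of −0.16: Osgin1 (2.64) and Hmox1 (1.97) led the rises, and the cystine carrier gene Slc7a11 (−1.99) the falls. The integrated stress response genes had 6 rises and 11 falls of 19 tested, with large rises for Ddit3 (3.87), Atf3 (3.31) and Ppp1r15a (2.86) and falls for Aldh18a1 (−1.59) and the amino acid carrier gene Slc7a5 (−1.04).

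In sgUba1 cells the 65 autophagy genes split evenly, with 12 rises and 12 falls of 63 tested (median log2 fold change 0.05), where 16.2% of all genes passed as higher and 13.6% as lower. The mitophagy receptor genes Bnip3 (−1.35) and Bnip3l (−0.61) led the falls, and Stbd1 (0.70), a receptor for glycogen, and Vamp8 (0.52), a SNARE of fusion with lysosomes, led the rises. Bnip3l thus fell in the sgUba1 line and rose with the drug. With IFN-γ there were 13 rises and 18 falls, where 17% of all genes passed as higher and 22.4% as lower, led by Vps18 (−0.76), Bnip3 (−0.66) and Wdfy3 (−0.59). The lysosome list had 13 rises and 3 falls without IFN-γ and 9 rises and 10 falls with it. The NRF2 targets had 4 rises and 5 falls, Slc7a11 among the latter (−1.42), and the integrated stress response genes 0 rises and 12 falls of 20, led by Chac1 (−1.98) and Trib3 (−1.36).

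In the tumors these lists held few calls. Of the autophagy genes, Ykt6, a SNARE of autophagosome fusion, passed in Myc-CaP sgUba1 tumors (log2 fold change 0.63), where 3.04% of all genes passed, and 0 passed in the other 3 tumor comparisons by edgeR. Psap, the gene of the saposin precursor, was the only lysosome gene to pass in any of the 4 (0.54, in Myc-CaP sgUba1 tumors). In that comparison Slc7a11 fell by 1.40 and Gsta1 rose by 3.20 among NRF2 targets, and 4 integrated stress response genes fell, Psat1 by 0.97. None of these 8 genes passed without tumors 4 to 7 (lowest adjusted p = 0.094, edgeR). With the replicate block none passed either (lowest adjusted p = 0.153, edgeR). Tumors 4 to 7 had no control of the same number, so the block also left them out of the difference and was no separate check. Without those tumors the log2 fold change was 0.49 for Ykt6, 0.43 for Psap, −1.22 for Slc7a11, 2.83 for Gsta1 and −0.93 for Psat1.

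Sqstm1 was last compared with all genes by the Pearson correlation of log2 CPM, centred within each experiment, over genes of at least 3 in mean log2 CPM. Over the 16 cell libraries, where the 4 TAK-243 libraries set most of the spread, the genes most like it were Ier5, Hbegf and Epha2 (r = 0.997 each) and Phf13 and Map3k6 (r = 0.996 each), of 9057 genes. Their log2 fold changes with TAK-243 lay between 2.06 and 2.71. Among members, Gabarapl1 (0.985), Map1lc3b (0.981), Ulk1 (0.962) and Gabarapl2 (0.945) were close to it, Gabarap (0.843) and Map1lc3a (0.71) less so, and Wipi1 (0.093) and Nbr1 (−0.47) were not. Over the 35 tumors the most like were Atp6v1d (0.857), a proton pump subunit gene of the lysosome list, Mroh1 (0.852), Pacsin3 (0.849), Gak (0.847) and Hdlbp (0.842) of 9942 genes. The members ranked otherwise there, with Nbr1 (0.755), Gabarap (0.749) and Map1lc3a (0.745) closest to Sqstm1 and Map1lc3b (−0.13) and Gabarapl2 (−0.21) on the other side of 0. The centring left in the split among Myc-CaP sgUba1 tumors, where Nbr1, Gabarap and Map1lc3a parted as Sqstm1 did and Map1lc3b did not. The part of that split in the tumor coefficients was not tested. Libraries of an experiment share their preparation, and these coefficients are descriptions.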

How the data were processed

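RNA-seq libraries of 35 tumors and 16 cultures were pseudoaligned by the authors with kallisto (version not given in the sources used here), against mm10 per the labels. GEO's labels give poly-A selection and the methods rRNA digestion. The deposited table of expected counts per gene is not normalised, and 31.9% of its values were not whole, so counts were rounded. The deposited TPM, scaled by the authors for length and depth, served for levels. Totals per library limit precision for sparse genes such as Tfeb.

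Each experiment was fitted separately with edgeR 4.0.16 (R 4.3.3): filterByExpr, TMM factors and the quasi-likelihood test, with Benjamini-Hochberg adjustment over all genes tested and a threshold of 0.05. Comparisons across experiments used joint fits. CPM were normalised by these factors. Groups came from GEO's labels, with titles marked T read as tumors and R as cells. The 10 members, the gene lists and the tests were chosen with earlier results of these data known. The members were always named, with the 5 further autophagy genes per direction, and 3 per other list, of largest change among those past the threshold whose groups did not overlap, of which the text gives a selection. Alternatives were DESeq2 1.42.0, limma-voom and log2(TPM + 1) with limma 3.58.1, RLE factors, no filter, at least 10 counts in every library, Bonferroni adjustment, a replicate block, only the groups compared, and leaving out each library. The fit was run on counts simulated from its own model with known changes put in. Such a run cannot tell whether that model holds for these libraries. No pair among 75 replicate pairs held identical values.

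Replicate numbers were not taken to pair samples: correlations of deviations from group means between same-numbered libraries ran from −0.179 to 0.315 over the experiments.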

Additional observations from a re-analysis of the deposited data

Results flagged for a closer look

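Sqstm1 was 433.9 CPM in TAK-243 tumor 5, apart from 292.9 to 330.9 CPM in the other 4 tumors of its group, with a gap of 0.73 of the group's range. Of 50 groups of values looked at, 1 stood out in this way, where chance gives about 1 in 20.

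The change of Ulk1 in sgUba1 cells differed with IFN-γ by −0.42 on the log2 scale, and the change of Sqstm1 with TAK-243 differed with IFN-γ by −0.16, both by edgeR's interaction test.

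The change with TAK-243 in cells differed from that in tumors, by a test of the difference, by 2.40 for Sqstm1, 0.64 for Map1lc3a, 1.16 for Map1lc3b, 0.64 for Gabarapl1, 1.30 for Gabarapl2, 1.10 for Ulk1 and −1.53 for Tfeb on the log2 scale.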

How the results depend on the processing

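Of 998 recomputed values of members past the threshold, 908 kept direction and side of the threshold, 88 kept the direction only and 2 reversed. The reversed values came from log2(TPM + 1), the cause of which was not tested: Map1lc3b with IFN-γ in untreated cells (−0.0193, where the median of all genes shifted by −0.1797) and Sqstm1 for the TAK-243 change with IFN-γ minus that without (0.0200, median shift 0.1535). With TAK-243 and IFN-γ that median shifted by 0.1001.

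Counts of members past the threshold moved by over 1.5 times as follows. DESeq2 gave 1 in B16-BL6 sgUba1 tumors, 1 in TAK-243 tumors, 3 in sgUba1 cells and 0 for the TAK-243 difference with IFN-γ. log2(TPM + 1) gave 1 in sgUba1 cells, 2 for IFN-γ in untreated cells and 0 for both differences with IFN-γ. Bonferroni adjustment, stricter by construction, gave 0 in sgUba1 cells, 1 with IFN-γ there, 1 for IFN-γ in untreated cells, 0 for both differences with IFN-γ and 3 for cells minus tumors. Only the groups compared gave 3 in sgUba1 cells, no filter gave 1 for IFN-γ in NC cells, and RLE factors and the stricter filter each gave 0 for the TAK-243 difference with IFN-γ.

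Leaving out 1 library gave 0 to 0 members in each tumor comparison, 0 to 7 in sgUba1 cells, 4 to 6 in sgUba1 cells with IFN-γ, 8 to 9 with TAK-243, 9 to 9 with TAK-243 and IFN-γ, 0 to 2 for IFN-γ in NC cells, 4 to 6 for IFN-γ in untreated cells, 0 to 2 for the sgUba1 difference with IFN-γ, 0 to 0 for the TAK-243 difference with IFN-γ, 9 to 9 for TAK-243 minus sgUba1 and 6 to 7 for cells minus tumors. A group left with 1 library was assumed to vary like the others.

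The replicate block changed no count of members, with 0 in each tumor comparison, 5 and 5 in sgUba1 cells without and with IFN-γ, 8 and 9 with TAK-243, 0 and 6 for IFN-γ in NC and untreated cells, 1 and 1 for the differences with IFN-γ, 9 for TAK-243 minus sgUba1 and 7 for cells minus tumors. Over all genes it took calls in Myc-CaP sgUba1 tumors from 492 to 2. There, tumors 4 to 7 had no control of the same number, so the block left them out of the difference. In the other tumor comparisons, tumors without a partner of the same number were likewise left out of it.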
